A study of Mus musculus with 6 samples.

Results

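The genes described here mark the 2-cell-like state of mouse embryonic stem (ES) cells and were read on 6 arrays. They are Zscan4c, Zscan4d, Zscan4f, Tcstv1, Tcstv3, Zfp352, Tdpoz1 and Tdpoz4, and every array probe that the platform's annotation gives to 1 of these symbols was used. Of the 8 genes 6 had a named probe, 1 each, and all 6 passed the filter on dim probes, among 8529 genes tested in all. No probe is named for Zscan4d or Zscan4f in the annotation used, which lists only part of the probes, and both are not analysed here. The measurement asked what happened to these genes when Prdm14, a PR domain transcriptional regulator of pluripotency and of germ cell specification, was raised in ES cells grown with serum. Total RNA of 3 samples with Prdm14 overexpression and of 3 samples with a control vector was hybridised to Illumina Mouse WG-6 arrays. Both groups had a 129P2 background, and the stable overexpressing lines were made by the study from a parental line that carries a Rex1-GFPd2 (Zfp42-GFPd2) reporter. For the cells put on the arrays the sources used here name neither the promoter that drove Prdm14 nor the number of lines. The replicates of a group were taken at successive passages, so the p-values rest on the spread from passage to passage, and any other difference between the cells made with either vector cannot be told apart from Prdm14 itself.

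Mouse ES cell cultures hold a small, changing fraction of cells that switch on genes of the 2-cell embryo. Such cells express the Zscan4 genes, the Tcstv genes, Zfp352 and the MERVL endogenous retrovirus, and the transcription factor DUX is known to switch on much of this programme. The Zscan4 proteins carry a SCAN domain and zinc fingers and are known in ES cells for their part in telomere lengthening, Tcstv1 and Tcstv3 were likewise linked to telomere length, Zfp352 is a zinc finger gene of the 2-cell embryo, and the Tdpoz genes encode proteins with a TRAF-like and a POZ domain that are expressed in early embryos.

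Several members belong to families of near-identical copies, and the promoters are shown to make that visible before the values. They come from RefSeq (assembly GRCm38.p6, the C57BL/6J reference and not the 129P2 genome of the cells), run 5′ to 3′ on the gene's strand, and hold 250 bases before and 50 bases after the annotated start of transcription. Of the 8 genes 6 had an entry, all but Tcstv1 and Tcstv3. Capitals mark TATAA, the core of a TATA box, on the gene's strand within 100 bases before the start. The 3 Zscan4 windows are at chr7:11005495-11005794 (plus strand) for Zscan4c, chr7:11166099-11166398 (minus strand) for Zscan4d and chr7:11397665-11397964 (plus strand) for Zscan4f.
Zscan4c: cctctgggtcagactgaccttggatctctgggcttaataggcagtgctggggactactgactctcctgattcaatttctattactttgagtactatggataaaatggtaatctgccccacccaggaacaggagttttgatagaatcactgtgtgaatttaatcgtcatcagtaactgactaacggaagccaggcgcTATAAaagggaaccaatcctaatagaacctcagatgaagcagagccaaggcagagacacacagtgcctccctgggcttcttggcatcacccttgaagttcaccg
Zscan4d: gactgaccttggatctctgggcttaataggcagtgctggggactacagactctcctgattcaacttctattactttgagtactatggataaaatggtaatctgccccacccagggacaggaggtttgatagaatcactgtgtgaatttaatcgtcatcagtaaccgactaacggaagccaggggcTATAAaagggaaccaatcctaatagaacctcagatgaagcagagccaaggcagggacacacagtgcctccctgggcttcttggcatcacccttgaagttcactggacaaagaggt
Zscan4f: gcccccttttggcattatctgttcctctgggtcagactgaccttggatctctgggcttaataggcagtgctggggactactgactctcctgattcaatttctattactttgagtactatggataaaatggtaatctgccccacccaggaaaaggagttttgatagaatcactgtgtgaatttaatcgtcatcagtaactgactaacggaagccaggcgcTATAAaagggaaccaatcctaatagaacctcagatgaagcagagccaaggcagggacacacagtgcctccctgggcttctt
Over their aligned part the windows of Zscan4c and Zscan4f were identical at 275 of 277 bases (99.3%), those of Zscan4c and Zscan4d at 281 of 289 (97.2%) and those of Zscan4d and Zscan4f at 259 of 266 (97.4%). The sequences of the array probes were not analysed here, so whether the probe named for Zscan4c also reads its copies was not tested, and the same holds for the Tdpoz probes.

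The windows of Zfp352, at chr4:90218570-90218869 (plus strand), and of Tdpoz1, at chr3:93676234-93676533 (minus strand), are shown as the members outside the Zscan4 family that hold the same letters.
Zfp352: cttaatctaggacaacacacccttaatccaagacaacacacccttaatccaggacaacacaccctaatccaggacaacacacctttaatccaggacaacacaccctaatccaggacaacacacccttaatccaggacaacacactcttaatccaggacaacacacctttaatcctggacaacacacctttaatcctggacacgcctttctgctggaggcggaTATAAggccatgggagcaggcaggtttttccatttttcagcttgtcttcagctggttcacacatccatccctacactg
Tdpoz1: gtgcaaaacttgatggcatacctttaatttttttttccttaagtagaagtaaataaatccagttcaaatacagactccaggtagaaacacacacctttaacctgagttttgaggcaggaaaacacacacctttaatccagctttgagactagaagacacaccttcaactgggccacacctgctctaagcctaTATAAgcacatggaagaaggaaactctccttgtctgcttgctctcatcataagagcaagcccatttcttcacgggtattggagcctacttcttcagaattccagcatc
The letters TATAA stood in this stretch in 5 of the 6 windows, against 7.69% of 32851 promoters of the same length, and were absent from that of Tdpoz4. Counted back from the annotated start they began 54 bases before it in Zscan4c, 65 in Zscan4d, 31 in Zscan4f, 28 in Zfp352 and 58 in Tdpoz1. The stretch of 100 bases was chosen after the sequences had been seen. The Zscan4 windows are near-identical copies, so the 5 windows are not 5 separate cases. A PRDM14 motif (GGTCTCTAA, either strand) was found in 0 of the 6 windows and in 0.256% of all promoters. These matches describe letters and are no evidence of binding or of its absence.

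Each array held 45281 probes, of which 14078 to 14769 were detected, meaning that they had a detection p under 0.01 against the negative control beads. Detection on 3 or more of the 6 arrays was the condition for testing, which 14604 probes met. The arrays of Prdm14 overexpressing cells were brighter: their median signal over tested probes was 560.5, 415 and 461, against 363, 373 and 430 in control cells, and over probes detected on no array it was 81.2, 73.3 and 73.6, against 59.6, 61.3 and 62.8. Levels and differences are therefore given after background correction and quantile normalization, on the log2 scale, beside the signals as deposited. Over the tested probes r was 0.990 to 0.994 within a group and 0.978 to 0.983 between the groups. The Prdm14 probe ILMN_1222112 had signals of 14907, 10751 and 11016 in overexpressing cells, against 801, 673 and 855 in control cells, and differed by 3.86 ± 0.12 (SE) on the log2 scale (limma, adjusted p = 1.73e-06). A second Prdm14 probe was detected on all 3 overexpression arrays and on no control array and was at least 6.04-fold higher. All 8 ES cell markers were detected on each array, with a summed signal of 122839 to 135252 in overexpressing cells and of 105545 to 118991 in control cells. Of the markers of other cell types, 1 of 7 fibroblast genes (Thy1), 2 of 6 primitive endoderm genes (Gata6 and Sox7) and 1 of 5 trophectoderm genes (Gata3) had a named probe. Their summed signals were 304 to 366, 625 to 775 and 169 to 245 in overexpressing cells, against 265 to 322, 415 to 546 and 171 to 209 in control cells. None of the tested marker genes passed the threshold.

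Zscan4c RNA was lower in Prdm14 overexpressing cells, while the other 5 members did not pass the test. Their estimated differences ran in both directions, from -0.50 for Tdpoz1 to 0.59 for Zfp352 on the log2 scale. With an adjusted p under 0.01, the threshold of the study, 1 of the 6 member probes was lower and 0 were higher. Over all tested probes 3.50% passed in either direction, 2.10% lower and 1.40% higher. At an unadjusted p under 0.05 the count was 2 of 6 members (Zscan4c and Tdpoz1), against 23.3% of all probes. The median difference of the 6 members was -0.18, against 0.0075 over all tested probes. The groups did not overlap for the same 2 members, against 28.5% of all probes.

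**Figure D1:**
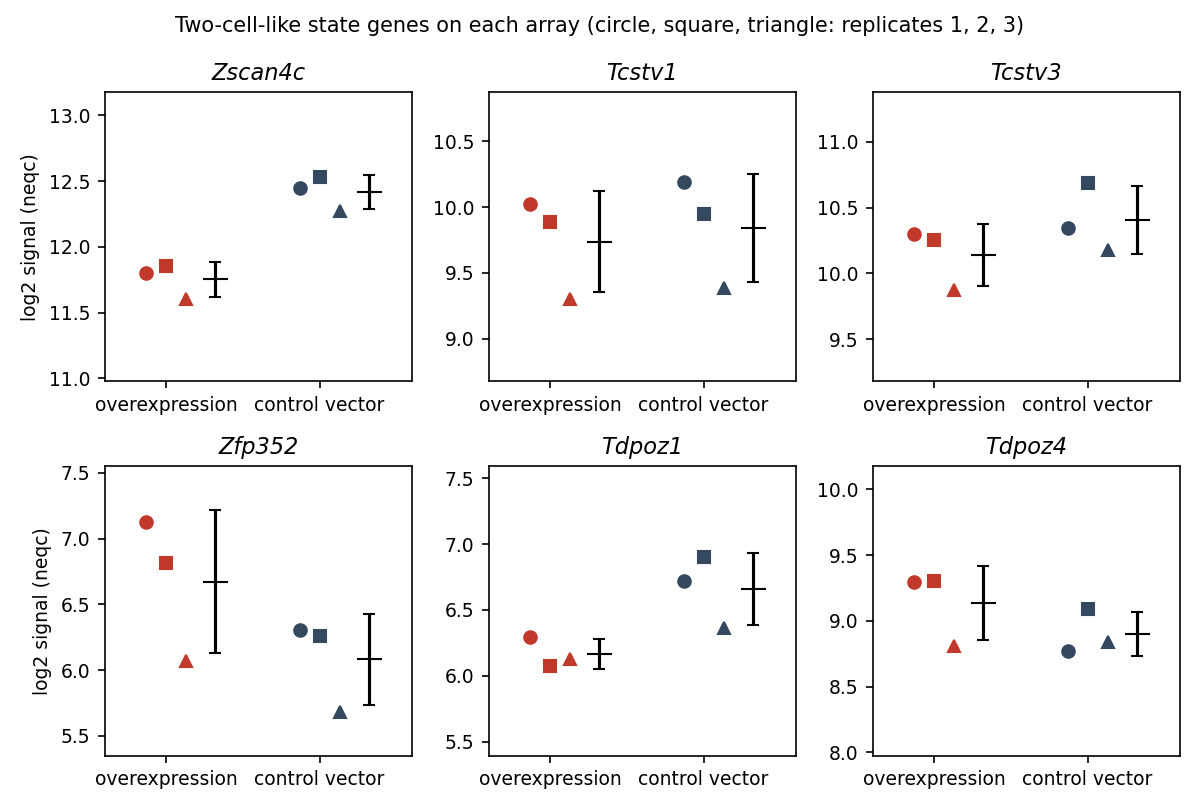
Normalised log2 signal of the 6 members on each array, with Prdm14 overexpression left of control vector in each panel; circle, square and triangle are replicates 1, 2 and 3, the bar is the mean ± SD of 3 arrays, and the panels have different origins but the same span. The Zscan4c points of the groups lie apart by more than their spread, and in 4 panels the triangle is the lowest point of both groups.

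Zscan4c is the member most often used to label the 2-cell-like state. Its probe ILMN_3013659 had signals of 4461, 3668 and 3249 in overexpressing cells, against 4809, 5664 and 5089 in control cells. Every overexpression array was below every control array, although the overexpression arrays were the brighter ones. The normalised level was 11.76 ± 0.13 in overexpressing cells and 12.42 ± 0.13 in control cells (SD, n = 3 each). The difference was -0.66 ± 0.11 (SE), or 1.58-fold lower, with an adjusted p of 0.00825 in limma, rank 469 of 14604. In RNA of whole cultures, fewer cells in the 2-cell-like state and less Zscan4c RNA in each such cell cannot be told apart. The call rested on all 6 arrays: without any 1 of them the difference was -0.73 to -0.59 and the adjusted p 0.0158 to 0.0417. It also missed the threshold with median scaling in place of quantile normalization (-0.60, adjusted p = 0.0182) and with all probes in the test (adjusted p = 0.0300).

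Tcstv1 and Tcstv3, a pair of genes first found as transcripts that vary at the 2-cell stage, showed no difference past the test. Tcstv1 (ILMN_2946986) had signals of 1375, 957 and 726 in overexpressing cells, against 1019.8, 925 and 725 in control cells. Its normalised level was 9.73 ± 0.38 in overexpressing cells and 9.84 ± 0.41 in control cells (SD, n = 3 each), a difference of -0.11 ± 0.24 (SE; limma, adjusted p = 0.847). The groups overlapped, the spread within a group exceeded the difference, and its sign turned under some settings. Without overexpression replicate 3 the difference was 0.11, without control replicate 1 it was 0.069, and with median scaling, which moved the median over all probes to 0.13, it was 0.014.

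Tcstv3 (ILMN_2637059) had signals of 1655, 1219.5 and 1046 in overexpressing cells, against 1127, 1535 and 1209 in control cells. Its normalised level was 10.14 ± 0.24 in overexpressing cells and 10.40 ± 0.26 in control cells (SD, n = 3 each). The groups overlapped, and the difference of -0.26 ± 0.16 (SE) did not pass in limma (adjusted p = 0.377). It was -0.13 without overexpression replicate 3, -0.12 without control replicate 2 and -0.14 with median scaling.

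Zfp352 was a dim member. Its probe ILMN_1227634 had signals of 249, 165 and 131 in overexpressing cells, against 115, 114 and 101 in control cells. It was detected on replicates 1 and 2 of each group and on neither array of replicate 3. The signals of the groups do not overlap, but the normalised levels do, 6.67 ± 0.54 in overexpressing cells and 6.08 ± 0.35 in control cells (SD, n = 3 each). The difference was 0.59 ± 0.27 (SE; limma, adjusted p = 0.226). It was 0.89 without overexpression replicate 3 (adjusted p = 0.0387), 0.35 without overexpression replicate 1, 0.39 without control replicate 3 and 0.36 with no background correction, and 0.19 in the authors' normalized values with matched columns. The brighter background of the overexpression arrays stands beside this value and its part was not tested.

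Of the Tdpoz genes, Tdpoz1 was a dim member too. Its probe ILMN_2745344 had signals of 168, 123 and 134 in overexpressing cells, with detection on 1 array, against 138, 149.7 and 133 in control cells, with detection on all 3. After normalization the groups did not overlap, at 6.16 ± 0.11 in overexpressing cells and 6.66 ± 0.27 in control cells (SD, n = 3 each). The difference of -0.50 ± 0.14 (SE) did not pass the threshold in limma (adjusted p = 0.0712). It was -0.30 with no background correction, -0.16 in the normalized values with matched columns (adjusted p = 0.193) and -0.65 without control replicate 3 (adjusted p = 0.0266). The signals as deposited overlapped, and the brighter background of the overexpression arrays stands beside this value as well.

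Tdpoz4 (ILMN_2860432) had signals of 871, 656 and 534 in overexpressing cells, against 412, 523 and 509.6 in control cells. The normalised levels, 9.14 ± 0.28 in overexpressing cells and 8.90 ± 0.17 in control cells (SD, n = 3 each), overlapped. The difference was 0.24 ± 0.15 (SE; limma, adjusted p = 0.408). It was 0.40 without overexpression replicate 3, 0.15 to 0.16 without either of the other overexpression replicates, and 0.37 with median scaling.

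Replicate numbers are shared between the groups, and the array deviations of all tested probes followed them, least so for number 1 (r = 0.121, 0.390 and 0.324 for numbers 1, 2 and 3). For arrays of unlike numbers r was -0.311 to 0.058. Within each number Zscan4c differed by -0.64, -0.67 and -0.67, nearly the same value at each. Zfp352 differed by 0.83, 0.55 and 0.39 and was thus higher in overexpressing cells within each number. The last value compares arrays on which Zfp352 was not detected. Tdpoz1 differed by -0.43, -0.83 and -0.23. Tcstv1 differed by -0.17, -0.06 and -0.09 and Tcstv3 by -0.04, -0.44 and -0.31, while Tdpoz4, at 0.52, 0.22 and -0.03, did not keep its sign. With the replicate number as a block the SE of Zfp352 fell to 0.11, against 0.27 without it, and its adjusted p in limma was 0.0164, short of the threshold. Tdpoz1 had an adjusted p of 0.0460 with the block, and no member call changed.

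**Figure D2:**
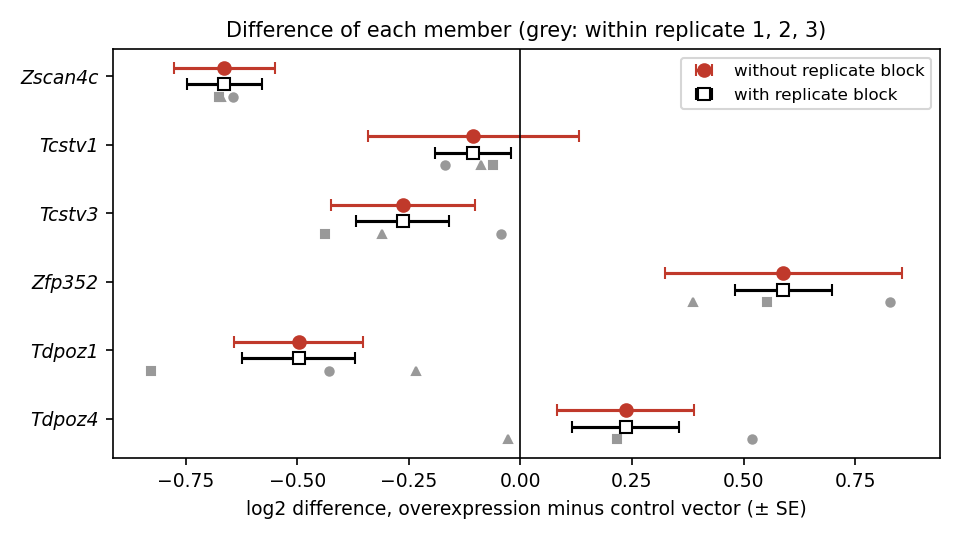
Log2 difference of each member, overexpression minus control vector, with its SE from 6 arrays; filled red points are the fit without and open squares the fit with the replicate number as a block, and grey circle, square and triangle are the differences within replicates 1, 2 and 3. The 3 grey points of Zscan4c lie between -0.67 and -0.64, and those of Zfp352 are all above 0. Zfp352 was not detected on either array of replicate 3.

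Since 1 member passed and the others did not, the difference between each pair of members was tested on its own, as the log2 level of 1 probe minus that of the other on each array. With 3 arrays against 3 the exact permutation test, two-sided, cannot go below p = 0.1, and over the 15 pairs the smallest adjusted p it reached was 0.188. In 8 of the 15 pairs the groups separated completely, the most that this design can show. The pairs reuse the same members, and the share among pairs of other probes was not computed. Of single probes 28.5% had groups that did not overlap. Zscan4c minus Zfp352 was lower in overexpressing cells by a difference of -1.25, with a 95% interval of -2.04 to -0.47 from the pooled SD. Zscan4c minus Tdpoz4 differed by -0.90 (-1.22 to -0.57) and Zscan4c minus Tcstv3 by -0.40 (-0.70 to -0.10). These 3 intervals lay below 0, while no pair passed after adjustment. For Tcstv1 the interval reached 0 (-0.56, -1.22 to 0.10, exact p = 0.2), and for Tdpoz1 it did so as well (-0.17, -0.52 to 0.19, exact p = 0.3), though not with no background correction (-0.35, -0.59 to -0.11). Zfp352 and Tdpoz1, both near background, differed by 1.09 (0.27 to 1.90), or by 0.67 (0.16 to 1.18) with no background correction, and Tdpoz1 minus Tdpoz4, within 1 family, differed by -0.73 (-1.29 to -0.17). The groups also separated for Tcstv1 minus Zfp352 (-0.69, -1.02 to -0.37) and Tcstv3 minus Zfp352 (-0.85, -1.49 to -0.21). The same held for Tcstv3 minus Tdpoz4 (-0.50, -0.74 to -0.26), so Zscan4c was not the only member set apart from others. The intervals are not adjusted for the number of pairs.

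Taken within each replicate number, a calculation added after the values were seen, some of these intervals changed in whether they held 0. Zscan4c minus Tcstv1 was -0.48, -0.61 and -0.58 within numbers 1, 2 and 3, with a 95% interval of -0.74 to -0.38 that lay below 0. Zscan4c minus Tcstv3, at -0.60, -0.24 and -0.36, then had an interval that reached 0 (-0.86 to 0.06), as did Tdpoz1 minus Tdpoz4 (-1.87 to 0.40). Zfp352 minus Tdpoz4 was 0.31, 0.34 and 0.41 and its interval excluded 0 (0.22 to 0.49), against -0.36 to 1.07 without the pairing. The intervals of Zscan4c minus Zfp352 (-1.77 to -0.73) and minus Tdpoz4 (-1.54 to -0.26) lay below 0 either way. So did those of Tcstv1 minus Zfp352 (-1.37 to -0.025), Tcstv3 minus Zfp352 (-1.22 to -0.48) and Tcstv3 minus Tdpoz4 (-0.98 to -0.019). With 3 numbers the exact sign-flip test, two-sided, cannot go below p = 0.25.

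The members also moved together from array to array inside the groups. Once each array's deviation from its own group mean was taken, the correlation between 2 members was above 0 in 15 of 15 pairs, with a median r of 0.77 and a range of 0.38 to 0.95, and it was above 0.5 in 14 of them. Between a member and any other tested probe r was above 0.5 for 22.4% of values, with a median of -0.017. These values are a description over 6 arrays, which all members share, and each array enters every pair. Zscan4c followed Tcstv3 at r = 0.94, a value reached by 1.90% of all probes, Tcstv1 at 0.87 (5.31%) and Tdpoz4 at 0.82 (7.43%). Tcstv3 followed Tdpoz4 at 0.90 (3.64%) and Tcstv1 at 0.74 (11.9%). The lowest value among the 4 members detected on every array was 0.59, for Tcstv1 and Tdpoz4 (16.3%). Each share counts the probes that follow the first-named member at least as closely. Tcstv1 and Zfp352 had 0.95, with Zfp352 undetected on both arrays of replicate 3. That was the highest value here, but with no background correction and with median scaling Zscan4c and Tcstv3 had the highest (0.94 and 0.97). Tdpoz1 and Tdpoz4, of the same family, had the lowest, 0.38 (24.3%), as they did under both of these settings.

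Over the 6 arrays without regard to group, 0 of 6 pairs of members detected on every array correlated past an adjusted p of 0.05. For the pairs with Zscan4c no pooled value is given, because its groups lie apart. Tcstv1 and Tcstv3 gave r = 0.70 (exact permutation p = 0.0986, adjusted 0.296) and rho = 0.83 (exact permutation p = 0.0583, adjusted 0.308). Without the 2 arrays farthest from the median of Tcstv1, both of replicate 3, r was -0.13, so the relation rested on those arrays. Tcstv1 and Tdpoz4 had r = 0.41 and rho = -0.029 (exact permutation p = 0.382 and 1, adjusted 0.560 and 1), and r = -0.83 without the same 2 arrays. Tcstv3 and Tdpoz4 had r = 0.35 and rho = 0.086 (exact permutation p = 0.535 and 0.919, adjusted 0.560 and 1). Without the 2 arrays farthest from the median of Tcstv3, overexpression replicate 3 and control replicate 2, their r was 0.020.

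**Figure D3:**
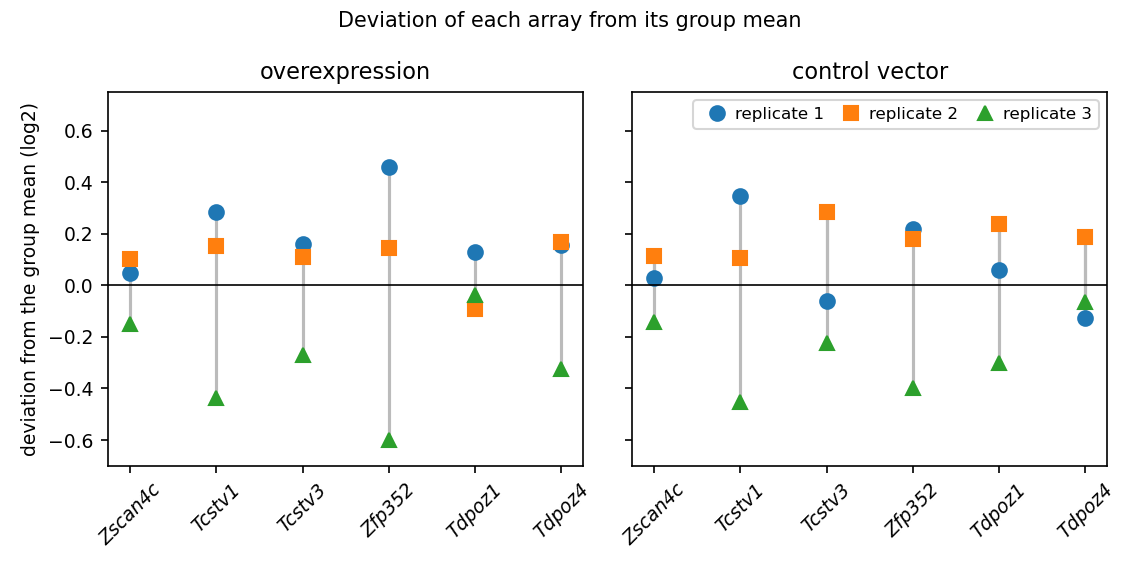
Deviation of each array from the mean of its group in log2 units, for the 6 members, with overexpression left and control vector right; symbols mark replicates 1, 2 and 3. The replicate 3 symbol is the lowest for 5 of 6 members in overexpressing cells and for 5 of 6 in control cells.

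Replicate 3 was low in both groups for most members. In overexpressing cells replicate 3 was the lowest array for 5 of 6 members, all but Tdpoz1, and in control cells for 5 of 6, all but Tdpoz4. Zscan4c, Tcstv1, Tcstv3 and Zfp352 were lowest on replicate 3 in both groups, 4 of 6 members, against 14.1% of all tested probes. Relative to its group mean Tcstv1 lay at -0.44 on replicate 3 of the overexpressing cells and at -0.45 on that of the control cells. Zfp352 lay at -0.60 and -0.40, Tcstv3 at -0.27 and -0.22, and Zscan4c at -0.15 and -0.14 on the same arrays. The deviation was thus of like size in both groups for Tcstv1, Tcstv3 and Zscan4c. The median over the members on replicate 3 was -0.22, beside a median of 0.0016 over all probes. Replicate 3 also had the fewest detected probes of its group, 14369 in overexpressing and 14078 in control cells, and the part of this in the members' values was not tested.

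A test of the replicate number across all probes, chosen after these values had been seen, passed for 0 of 14604 probes in limma at an adjusted p under 0.01, and at an unadjusted p under 0.05 for 2235 probes (15.3%), 3 of the 6 members among them. Tcstv1 ranked 34 (adjusted p = 0.158) and Zfp352 ranked 86 (adjusted p = 0.165). With no background correction 0 probes passed and Tcstv1 had an adjusted p of 0.0223, and with median scaling 2 probes passed, neither a member, with adjusted p-values of 0.0478 for Zfp352 and 0.0558 for Tcstv1. The drop on replicate 3 is thus a pattern seen in these arrays that did not pass a test across all probes.

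Among 27 further genes of the 2-cell state 8 had a named probe and were tested, and 1 was lower and 0 were higher in overexpressing cells. Read by gene, 2.50% of all genes were lower and 1.50% higher. Tdpoz3, another gene of the TRAF-like and POZ domain family (ILMN_3112023), had signals of 160.3, 112 and 119 in overexpressing cells, with detection on 1 array, against 139, 147 and 172 in control cells, with detection on all 3. Its normalised levels of 5.93 ± 0.22 and 6.85 ± 0.09 (SD, n = 3 each), for overexpressing and control cells, did not overlap, and the difference was -0.92 ± 0.13 (SE; limma, adjusted p = 0.00328). Like Tdpoz1 it was near background, where the overexpression arrays were brighter, and the part of this was not tested. The call held without overexpression replicate 1 (adjusted p = 0.00322). It was lost without any 1 of the other 5 arrays (adjusted p = 0.0118 to 0.0160), with all probes in the test (0.0220), with median scaling (0.0106) and in the normalized values with matched columns (0.0187), where the difference was -0.28. With no background correction the difference was -0.55.

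The other 7 genes gave values on either side of 0, with a median of -0.19 over all 8 and a range of -0.92 to 0.55, against -0.0016 over all genes. AF067063 had signals of 628, 505 and 473 in overexpressing cells, against 261, 395 and 297 in control cells, and a difference of 0.55 ± 0.19 (SE; limma, adjusted p = 0.109). This opposed the sign of Zscan4c. Leaving out control replicate 2 took AF067063 past the threshold (adjusted p = 0.00891). Ubtfl1, an HMG box gene of the preimplantation embryo, differed by -0.43 ± 0.19 (SE; limma, adjusted p = 0.223) and Tmem92, which encodes a transmembrane protein, by -0.34 ± 0.13 (SE; limma, adjusted p = 0.153). On these probes the normalised values of the groups did not overlap, as for 28.5% of all probes, but those of a second Tmem92 probe did (-0.21). The signals as deposited overlapped on both. Ubtfl1 was dim, with 175, 136 and 142 in overexpressing cells, against 131, 178 and 136 in control cells. The brighter background of the overexpression arrays stands beside its value, and the part of this was not tested. The 2 remaining Tdpoz genes with a probe, Tdpoz2 and Tdpoz5, differed by -0.17 ± 0.11 and 0.20 ± 0.19 (SE), so that the 5 family members measured had differences of both signs. At an unadjusted p under 0.05 the count was 3 of 8 genes, against 24.2% of all genes.

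**Figure D4:**
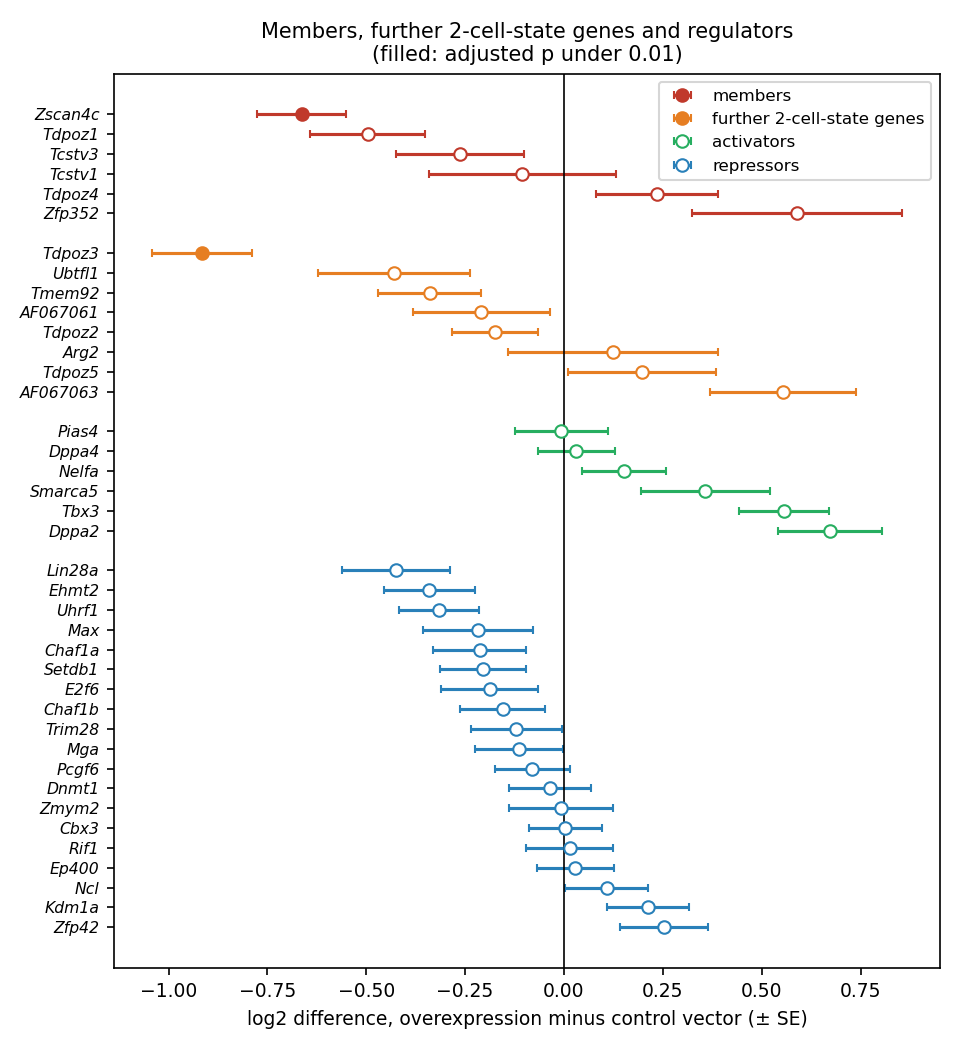
Log2 difference, overexpression minus control vector, with its SE from 6 arrays for the 6 members, 8 further genes of the 2-cell state, and 6 genes listed as activators and 19 listed as repressors of that state. Filled points have an adjusted p under 0.01. The place of Pias4 among the activators is not established here. Only Zscan4c and Tdpoz3 are filled, both left of 0, and Dppa2 and Tbx3 lie farthest right among the activators.

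The 2-cell-like state is also known for the factors that open or close it. Of 6 genes listed as activators all were tested and 0 passed. Their median difference was 0.25, and 5 of 6 differences were above 0, all but that of Pias4 (-0.0065). That Pias4 acts as an activator is not established here, so this count and median hold only for the list as drawn up. Dppa2, which acts upstream of DUX in mouse ES cells, had signals of 2105, 1371 and 1469 in overexpressing cells, against 828, 959 and 831 in control cells. Tbx3, a T-box factor known to raise Zscan4 expression, had 3418, 2285 and 2256 in overexpressing cells, against 1421, 1469.5 and 1661 in control cells. On these probes every overexpression array was above every control array, also after normalization, while Zscan4c ran the other way. They had the largest differences among the activators. On the brightest probes of the other activators the normalised groups overlapped, and over all probes 28.5% did not overlap. Of the 4 Tbx3 probes 2 overlapped between the groups, with differences of 0.38 and 0.55, and the second Dppa2 probe did not (0.52). The differences were 0.67 ± 0.13 (SE; limma, adjusted p = 0.0154) for Dppa2 and 0.56 ± 0.11 (SE; limma, adjusted p = 0.0184) for Tbx3. Both passed with no background correction (0.00378 and 0.00526), and Dppa2 alone with median scaling (0.00782). Smarca5, a chromatin remodeller, differed by 0.36 ± 0.16 (SE; limma, adjusted p = 0.230) and Nelfa, a subunit of the negative elongation factor, by 0.15 ± 0.11 (SE; limma, adjusted p = 0.444). Smarca5 was near background, detected on 2 overexpression arrays and on 1 control array. The brighter background of the overexpression arrays stands beside its value, and the part of this was not tested.

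Of 20 repressors 19 had a named probe, all but Hdac1, and 0 of the 19 tested passed, with a median difference of -0.11 and 6 differences above 0. The 4 with the largest differences were Lin28a, an RNA-binding protein that restrains Dux through the nucleolus, at -0.42 ± 0.14 (adjusted p = 0.0972), Ehmt2, the H3K9 methyltransferase G9a, at -0.34 ± 0.11 (adjusted p = 0.111), Uhrf1, the partner of the maintenance DNA methyltransferase, at -0.32 ± 0.10 (adjusted p = 0.0967), and Zfp42, or Rex1, at 0.25 ± 0.11 (adjusted p = 0.214), each with its SE from limma. On the brightest probe of each of these 4 the groups did not overlap, but the 4 were picked for their large differences. On the brightest probes of the other repressors the groups lay apart for Kdm1a and Setdb1 and overlapped for the rest. Over all probes 28.5% did not overlap. The 3 other Lin28a probes (-0.20 to -0.11) and the second Ehmt2 probe (-0.20) overlapped. Trim28 and Setdb1, which silence endogenous retroviruses together, differed by -0.12 ± 0.12 (adjusted p = 0.596) and -0.20 ± 0.11 (adjusted p = 0.302) in limma. At an unadjusted p under 0.05 the count over the 25 regulators was 6, or 24%, against 24.2% of all genes.

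The genes whose levels over the 6 arrays were most like those of Zscan4c, by Pearson's r, were Rbp7 (0.998), Gm128 (0.997), Pramel39 (0.994), Eef1akmt1 (0.994) and Pramel37 (0.993). Because the groups of Zscan4c lie apart, a choice by this r takes genes with a group difference of the same sign. Their differences are thus no separate finding. Rbp7 differed by -1.88 ± 0.21 (SE, limma, adjusted p = 0.00114), and the Pramel37 probe by -1.20 ± 0.20 (SE, limma, adjusted p = 0.00725). Rbp7 encodes a retinol-binding protein, and Pramel37 and Pramel39 belong to the PRAME-like family. By deviations from the group means, which leave the difference between the groups out, the nearest were Rad9b, Rbm48, Nsun5, Wdr43 and Wdr27, with r of 0.996 to 0.999. The Rad9b and Wdr43 probes differed between the groups by -0.08 ± 0.13 (adjusted p = 0.799) and 0.15 ± 0.11 (adjusted p = 0.455) in limma. These differences were not tested against that of Zscan4c. The 2 sets of 5 share no gene, and with 14604 probes ranked over only 6 arrays these values are a description.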

How the data were processed

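Bead signals of 6 arrays were analysed. The authors deposited average signal intensity per probe, without normalization, and beside each a detection p-value against negative control beads; the sources used here do not name the scanner software. A table of normalized values was deposited as well, by the authors, on a log2 scale and made with lumi per the submitters' processing notes (version not given). Set against the signals, 4 of its 6 columns matched another array than the one named (r of the best match 0.941 to 0.967), 2 in the other group, so that table was only an alternative, under its deposited sample names and with matched columns.

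Background correction, quantile normalization and the log2 step used neqc (offset 16; limma 3.58.1, R 4.3.3). Probes whose detection p was under 0.01 on 3 or more of 6 arrays were tested with lmFit and eBayes, Benjamini-Hochberg adjustment over 14604 probes and a threshold of 0.01. The fit was tested on simulated data. A gene with several probes was represented by the one with the highest mean. Differences are overexpression minus control.

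Names came from the platform's annotation, and older symbols were updated through a RefSeq table by gene identifier: of 15944 listed probes 13778 had 1 symbol, 6 several and 2160 none, and 13765 matched. Named were all members, Prdm14 and in each list the genes past the threshold and the 4 with the largest differences. The 5 genes nearest Zscan4c by each measure were named as well. Trim28, Setdb1, Kdm1a, Tdpoz2, Tdpoz5 and Nelfa were added after values were seen. Members and lists were chosen with earlier results of these data known.

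Replicate numbers come from the sample titles. Samples that share a number deviated together, least so for number 1 (r = 0.121, 0.390 and 0.324), although the labels do not say that a number marks a shared passage. The main fit and the permutation tests did not pair the arrays. A fit with the number as a block and differences within each number are given beside them. Correlations and exact permutation tests used Python 3.11.15 and scipy 1.17.1, promoter alignments Biopython 1.88. The number of arrays, 3 per group, limits the precision. Alternatives were the detection filter, background correction, normalization, offset, variance model, replicate block, the normalized table, and leaving out each array.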

Additional observations from a re-analysis of the deposited data

How the results depend on the processing

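Of the 6 members 0 passed with no detection filter, with median scaling, with the normalized table under its deposited sample names, and without any 1 array (0 to 0). Over all probes 148 passed with no detection filter, 857 with trended robust variances, 0 under the deposited names, and 193 to 337 without 1 array, against 511. Median scaling moved the median of all probes to 0.13 and called 331 higher and 210 lower, against 204 and 307. Of the further genes of the 2-cell state 0 passed with no filter, with detection on all 6 arrays (which leaves Tdpoz3 out), with median scaling and with the normalized table in either form, and 0 to 1 without 1 array. Regulators past the threshold numbered 2 with no background correction, an offset of 50, trended robust variances or matched columns, and 1 with median scaling.

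Zscan4c kept its sign under all 16 alternatives and its call under 7. Its adjusted p ran from 8.92e-05 to 0.0417, and was 0.998 under the deposited names (-0.10). Tcstv1 changed sign with median scaling (0.014), the deposited names (0.42), without overexpression replicate 3 (0.11) and without control replicate 1 (0.069), with -0.33 to 0.11 over the 6 fits that leave out 1 array, and Tcstv3 under the deposited names (0.043); the cause was not tested. With the replicate block the numbers past the threshold were 657 probes, 1 member (Zscan4c, -0.66, adjusted p = 0.00416), 1 further gene and 0 regulators, and the pairing changed no call of a member. In the covariation of member pairs 0 of 6 passed under each alternative. Signal near background limits Zfp352, Tdpoz1 and Tdpoz3, and also Ubtfl1, Tdpoz5 and Smarca5.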
